A study of Gallus gallus with 10 samples.

Results

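Genes of the mitochondrial ribosome were examined in the magnum of broiler breeder hens (Gallus gallus), the oviduct segment that secretes egg white. Members were all genes of the deposited count table whose symbol begins with MRPL or MRPS followed by a digit, 68 of 29558 genes, of which 41 carry the large-subunit prefix MRPL and 27 the small-subunit prefix MRPS. Whole magnum tissue came from 5 hens at 35 weeks of age, the peak of lay, and 5 hens at 50 weeks, when lay declines. No treatment or genotype was given for either age. Every bird had its own number and was sampled with an egg in the magnum, although the sample titles also name the shell gland, a later oviduct segment. The series asked which magnum transcripts differ between these ages.

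Mitochondria have their own ribosome, which translates the few mRNAs of the mitochondrial genome, all of them for core subunits of the respiratory chain and ATP synthase. Its RNAs come from mitochondrial DNA, whereas all of its proteins are encoded in the nucleus, made in the cytosol and imported. Some of these proteins have counterparts in bacterial ribosomes and others are specific to mitochondria. Because each assembled ribosome holds 1 copy of most of them, they are needed in similar amounts. A secretory epithelium such as the magnum draws on mitochondrial ATP for protein synthesis and export.

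Library totals lay between 188271 and 234824 counts at 35 weeks and between 205171 and 258195 at 50 weeks. OVAL, the gene of ovalbumin and a marker of the secreting gland, had the most counts of any gene with a symbol (3972 to 7293 per library), and the 9 markers of secretory cells together summed to 41249 to 54461 CPM (counts scaled by library totals) at 35 weeks and 28132 to 41297 CPM at 50 weeks, a difference whose part in the results was not tested. At 50 weeks replicate 4, and at 35 weeks replicates 1 and 2, had overall profiles unlike the others in an earlier look at these data, so the main values are also given without them. The libraries are directional, but the sources used here do not give the strand setting used to count reads, so reads of a gene and of a close or overlapping neighbour cannot be told apart. GAPDH and EEF1A1, a glycolytic enzyme and a translation elongation factor whose mRNAs are abundant in most cells, had only 1 to 7 and 29 to 84 counts per library. Whether the counts come from the sense strand of each gene is therefore not known, and every count, CPM and share below is that of the gene's row in the table, which may not be its own mRNA. In whole tissue, fewer cells of a type and less RNA per cell cannot be told apart either.

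The 68 genes were counted very unevenly. MRPL57, MRPS22, MRPL41, MRPS6, MRPL42 and MRPS7 together held 80.3% of the 15696 counts of the family, and the same 6 genes led in all 10 hens. MRPL57 had the most counts in 5 hens, MRPS22 and MRPL41 in 2 hens each, and MRPS6 in 1. In contrast, 40 members averaged less than 1 count per library and 7 had no count in any library. Sparse counts were not particular to the family. Of all 29558 genes in the table, 23085 averaged less than 1 count and 13766 had no count. Counts are not corrected for transcript length, so this order is one of counts and not of RNA level. As a comparison, the 6 most counted of 69 cytosolic ribosomal protein genes held 57.4% of that family's counts, and the 6 most counted of 53 nuclear oxidative phosphorylation genes held 94.3% of theirs.

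**Figure D1:**
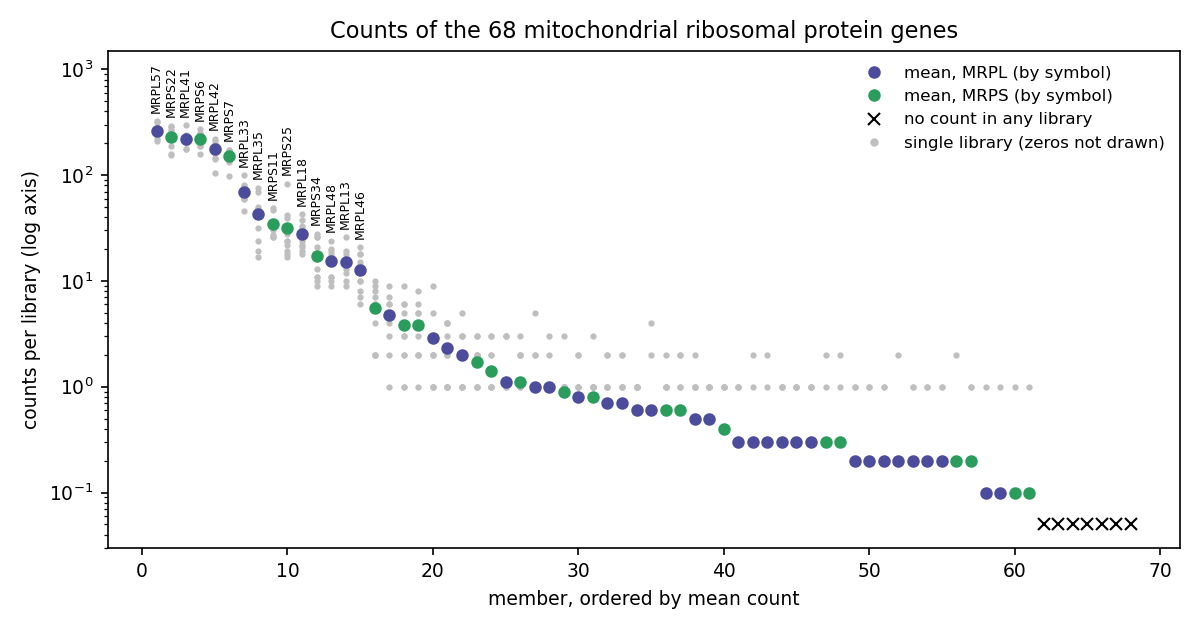
Counts per library (log axis) of the 68 mitochondrial ribosomal protein genes, ordered by mean count. Coloured points are means over 10 libraries, grey points single libraries, and crosses the 7 genes with no count in any library; the 15 labelled genes are those with enough counts to be tested.

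Summed over all members, the family took a slightly larger share of counts at 50 weeks. The share was 0.631%, 0.618%, 0.701%, 0.723% and 0.746% in replicates 1 to 5 at 35 weeks, and 0.757%, 0.778%, 0.725%, 0.722% and 0.797% at 50 weeks. The means were 0.684% ± 0.0566 (SD, n = 5) and 0.756% ± 0.0325, a difference of 0.0719 percentage points or 1.11 times. Replicates 4 and 5 at 35 weeks lay within the 50-week range, so the ages overlapped, while the 3 other hens at 35 weeks were below every hen at 50 weeks. The 95% Clopper-Pearson interval of a single hen's share, which covers counting error only, ran for example from 0.587% to 0.650% in the lowest hen and from 0.760% to 0.834% in the highest. With the library scaling used for single genes (TMM factors) in place of library totals, the means were 0.694% and 0.744%, a difference of 0.0503 points. Without the 3 libraries that stood apart the difference was 0.0406 points. As a sum over chosen members the share was given no test.

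Both subunits had a higher mean share at 50 weeks, and the ages overlapped for both. MRPL genes held 0.381% ± 0.049 of counts (SD, n = 5) at 35 weeks and 0.414% ± 0.0323 at 50 weeks. That difference of 0.0333 points was less than the 35-week SD, and the highest hen was at 35 weeks (replicate 5, 0.455%). MRPS genes held 0.303% ± 0.0222 and 0.342% ± 0.0263. The MRPL genes made up 52.4%, 55.3%, 55.3%, 53.8% and 61.0% of the family's counts in replicates 1 to 5 at 35 weeks, and 59.5%, 51.4%, 52.6%, 54.3% and 56.1% at 50 weeks. The means of 55.5% ± 3.27 and 54.8% ± 3.19 differed by −0.774 points, less than the spread between hens, and the sign turned on leaving out replicate 5 at 35 weeks (0.582) or replicate 2 at 50 weeks (0.080). Without the 3 libraries that stood apart the difference was −1.77 points. The proteins of MRPS18A and MRPS30 sit in the large subunit despite their names, and that of MRPS36 is now assigned to a dehydrogenase complex, but with these 3 genes moved accordingly the difference was −0.753 points.

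**Figure D2:**
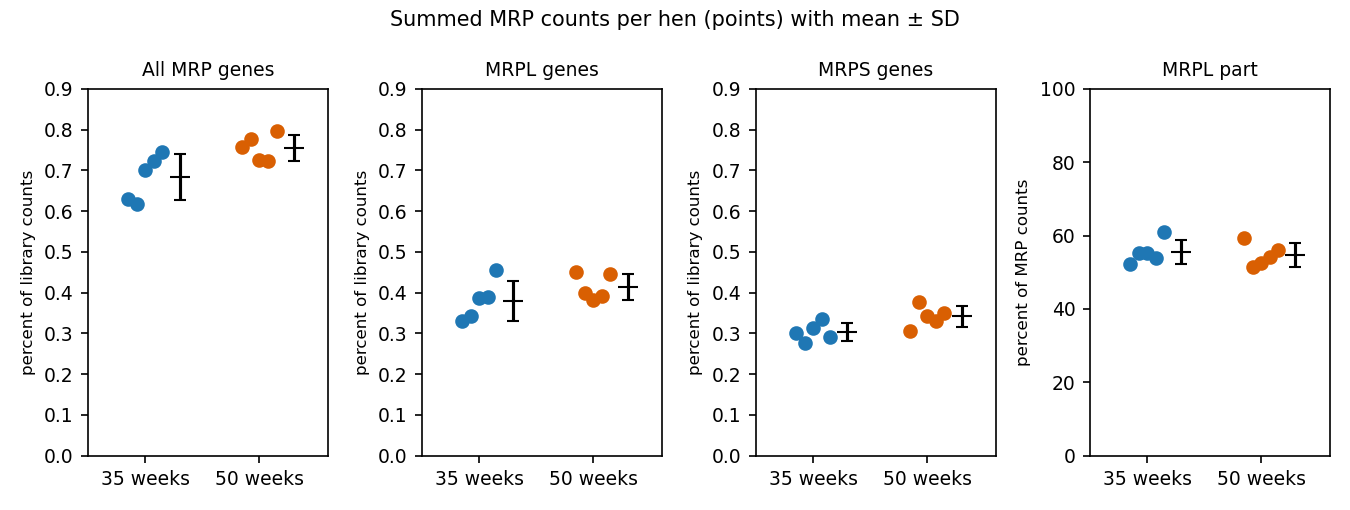
Summed counts of all MRP genes, of MRPL genes and of MRPS genes as percent of library counts, and the MRPL part as percent of MRP counts, for each hen (points) with mean ± SD over 5 hens. The ages overlap in all 4 panels.

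The family was also split by origin, with subunits assigned by where the protein sits. Large-subunit proteins specific to mitochondria held 0.304% ± 0.0404 of counts at 35 weeks and 0.332% ± 0.0287 at 50 weeks (SD, n = 5), whereas large-subunit proteins with a bacterial counterpart held 0.0772% ± 0.0214 and 0.0827% ± 0.00586. Small-subunit proteins with a bacterial counterpart held 0.177% ± 0.0201 and 0.206% ± 0.0171, and those specific to mitochondria 0.125% ± 0.0212 and 0.135% ± 0.0227. The ages overlapped in all 4 classes. These sums rest largely on a few genes. By mean count, MRPL57 (261.3), MRPL41 (221.7) and MRPL42 (176.5) led the large-subunit class specific to mitochondria, and MRPL33 (69.0) and MRPL35 (42.5) the other. MRPS6 (219.4) and MRPS7 (150.3) led the small-subunit class with bacterial counterparts, and MRPS22 (230.5) the one specific to mitochondria. The order of the classes therefore follows these rows, and a part of protein origin in it was not tested.

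For the change with age, 15 members had enough counts to be tested, 9 MRPL and 6 MRPS. They were 22.1% of the family, while 6.00% of all genes in the table were tested. In edgeR's quasi-likelihood test, with p adjusted by Benjamini-Hochberg over all 1773 tested genes, none reached the threshold of 0.05, which 0.0564% of the tested genes did. None did with limma-voom, where 8 of all 1773 tested genes did, nor did any of the 8 members that DESeq2 gave an adjusted p. With DESeq2, 17 of 1773 genes passed. It gave no adjusted p for the other 7 members, whose lowest unadjusted p was 0.0910. The adjusted p of the 15 in edgeR ran from 0.520 to 0.997. None of the 15 had an unadjusted p under 0.05 (10.5% of all tested genes had one) and none was separated between the ages (1.64% of all tested genes were). Log2 fold changes of 50 against 35 weeks were positive for 12 and negative for 3, against 50.8% positive among all tested genes, with a median of 0.14 against 0.0060. The 15 were measured in the same 10 hens and are not separate replicates, and this direction was not tested. Without the 3 libraries that stood apart the median was 0.04, with 10 of the 15 positive, and without replicate 1 or 4 at 35 weeks it was 0.07 and 0.21. Single genes moved as well without the 3 libraries. The log2 fold changes of MRPL57, MRPL41 and MRPL48 were then 0.0090, 0.014 and 0.077, and those of MRPL35, MRPL13 and MRPS34 were −0.56, −0.62 and −0.73. Those of MRPL46, MRPS11, MRPS7, MRPS6 and MRPL42 were higher than in the main fit, at 0.77, 0.30, 0.22, 0.18 and 0.085. All other tested members were lower than in the main fit. No member then had an adjusted p under 0.05, which 42 of all 1828 tested genes had. The authors' deposited table of their own comparison, with 203 genes against 29558 in the count table, lists none of the 68. With so few genes listed, this absence says little about the family.

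**Figure D3:**
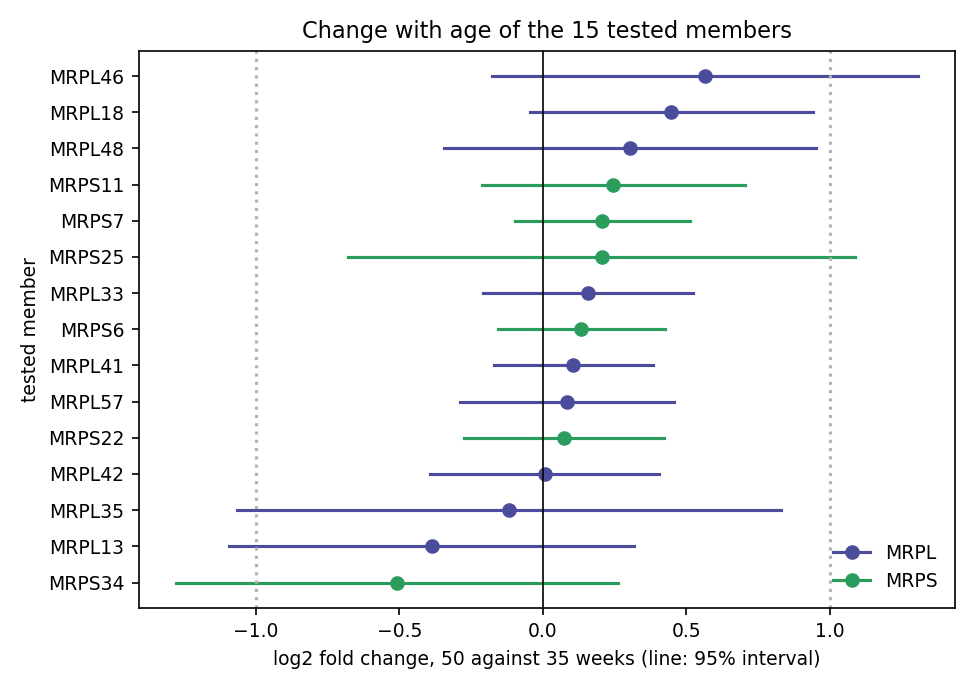
Log2 fold change of 50 against 35 weeks for the 15 tested members, with 95% intervals from edgeR's quasi-likelihood fit; dotted lines mark a 2-fold change. Every interval crosses 0, and 10 of the 15 lie between the dotted lines.

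Among the most counted large-subunit genes, MRPL57 (ENSGALG00010005448), a small protein specific to mitochondria, lies on chromosome 1 at 178473071 to 178473904 (build GRCg7b, as are all positions here, from the RefSeq gene table). Its values in replicates 1 to 5 were 946, 966, 1244, 1179 and 1533 CPM at 35 weeks and 1563, 1226, 1095, 949 and 1390 CPM at 50 weeks (CPM of single genes are scaled with TMM factors). The lowest and the highest hens of the ages lay close together, and the ages overlapped over nearly their whole range. The means were 1174 ± 239 and 1245 ± 241 CPM (SD, n = 5), with a log2 fold change of 0.09 (SE 0.17, 95% interval −0.29 to 0.46).

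MRPL41 (ENSGALG00010028921, chromosome 17, 2258196 to 2259093), another large-subunit protein specific to mitochondria, was the steadiest member. It had 801, 1010, 936, 1059 and 1074 CPM at 35 weeks and 1053, 1064, 948, 1147 and 1041 CPM at 50 weeks. Only replicate 1 at 35 weeks fell below 900 CPM. The coefficient of variation between hens was 11.4% at 35 weeks and 6.76% at 50 weeks, against 6.72% from counting alone at its mean count, and the log2 fold change was 0.11 (SE 0.13, 95% interval −0.17 to 0.38).

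MRPL42 (ENSGALG00010010394, chromosome 1, 44921671 to 44928855) is also specific to mitochondria and overlaps an annotated lncRNA. Its values were 900, 861, 771, 503 and 999 CPM at 35 weeks and 950, 638, 687, 863 and 915 CPM at 50 weeks. Replicate 4 at 35 weeks was the lowest hen. The log2 fold change was 0.01 (SE 0.19), and its sign depended on which hens were included.

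Of the most counted small-subunit genes, MRPS22 (ENSGALG00010025160, chromosome 9, 5539217 to 5544510) encodes a protein specific to mitochondria. It had 991, 1001, 819, 1291 and 1009 CPM at 35 weeks and 779, 1316, 1053, 1120 and 1110 CPM at 50 weeks. The lowest and the highest hen were both at 50 weeks. The log2 fold change was 0.07 (SE 0.16, 95% interval −0.28 to 0.42).

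MRPS6 (ENSGALG00010012648, chromosome 1, 105742489 to 105789854), which has a bacterial counterpart, overlaps the inositol transporter gene SLC5A3 over 22126 bases. It had 1077, 831, 1106, 918 and 849 CPM at 35 weeks and 985, 1114, 1045, 937 and 1170 CPM at 50 weeks, while SLC5A3 had 0 to 4 counts per library. The 3 lowest values were all at 35 weeks, but replicates 1 and 3 of that age lay among the highest. The log2 fold change was 0.14 (SE 0.14, 95% interval −0.16 to 0.43).

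MRPS7 (ENSGALG00010029701, chromosome 18, 11353107 to 11358519), with a bacterial counterpart in the head of the small subunit, overlaps MIF4GD, a gene with a role in mRNA translation, over 535 bases. MRPS7 had 602, 634, 776, 657 and 523 CPM at 35 weeks and 852, 773, 678, 665 and 721 CPM at 50 weeks. All hens at 35 weeks but replicate 3 were below all hens at 50 weeks. The means of 639 ± 92.2 and 738 ± 76.6 CPM (SD, n = 5) gave a log2 fold change of 0.21 (SE 0.14, 95% interval −0.10 to 0.51, edgeR adjusted p = 0.665). MIF4GD, with more counts than MRPS7, averaged 1114 ± 132 and 1176 ± 56.3 CPM (log2 fold change 0.08). Taken 1 gene at a time, the 95% intervals of the 6 most counted members had bounds from 0.762 (MRPL42) to 1.43 (MRPS7) times the 35-week level.

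**Figure D4:**
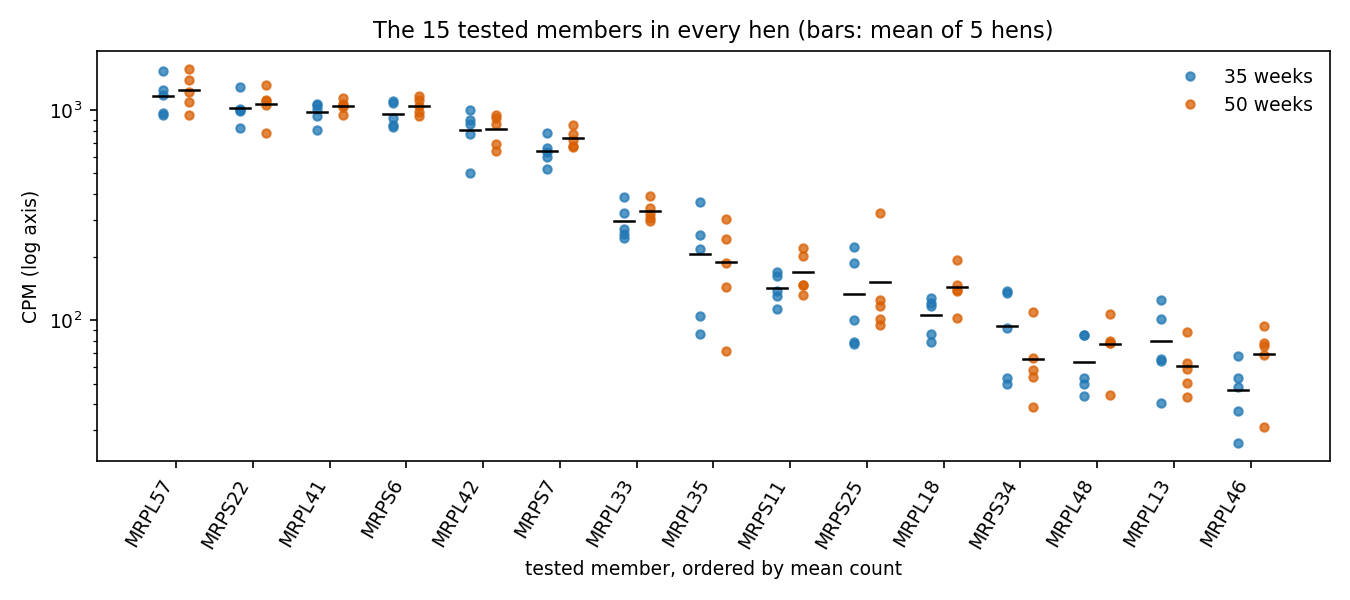
CPM (log axis) of the 15 tested members in every hen, with points for hens at 35 and 50 weeks and a bar at the mean of 5 hens. MRPL35 and MRPS25 show the widest scatter between hens, and the ages overlap for every gene.

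The next large-subunit genes were less counted. MRPL33 (ENSGALG00010020030, chromosome 3, 27333098 to 27338916), a small protein with a bacterial counterpart, had 271, 258, 324, 387 and 246 CPM at 35 weeks and 309, 296, 320, 389 and 341 CPM at 50 weeks. Both ages spanned similar values (log2 fold change 0.16, SE 0.17). Replicate 4 was the highest hen at either age. MRPL33 overlaps the gene RBKS over 174 bases, and RBKS averaged 54.2 counts against 69.0 for MRPL33. MRPL35 (ENSGALG00010017807, chromosome 4, 85004491 to 85011495), also with a bacterial counterpart, had 86.0, 105, 255, 367 and 219 CPM at 35 weeks and 245, 144, 71.6, 187 and 302 CPM at 50 weeks. It varied by 55.9% and 47.0% between hens, against 15.3% from counting alone, and its log2 fold change of −0.12 had an SE of 0.43.

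MRPL18, which has a bacterial counterpart, had the smallest unadjusted p of the family. It lies on chromosome 3 at 45268326 to 45270852 (ENSGALG00010004424), and had 86.0, 78.7, 117, 121 and 128 CPM at 35 weeks and 103, 193, 139, 148 and 138 CPM at 50 weeks. The 4 highest hens were all at 50 weeks, where only replicate 1 lay within the 35-week range. The means of 106 ± 22.3 and 144 ± 32.3 CPM (SD, n = 5) gave a log2 fold change of 0.45 (SE 0.23, 95% interval −0.04 to 0.94, edgeR unadjusted p = 0.0709, adjusted p = 0.520). Without replicate 1 at 50 weeks it was 0.56 (edgeR unadjusted p = 0.0346, adjusted p = 0.406), and without the 3 libraries that stood apart 0.24 (edgeR unadjusted p = 0.369).

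MRPL46, specific to mitochondria, and MRPS11, with a bacterial counterpart, are neighbours on chromosome 10. MRPL46 spans 13188006 to 13190527 (ENSGALG00010020224) and MRPS11 spans 13184454 to 13187969 (ENSGALG00010020206), 36 bases apart. MRPL46 had 67.9, 26.2, 37.2, 48.3 and 53.4 CPM at 35 weeks and 68.6, 94.3, 75.8, 31.1 and 77.7 CPM at 50 weeks. In CPM each hen at 50 weeks except replicate 4 was above every hen at 35 weeks, but MRPL46 had only 6 to 21 counts per library. Replicate 1 had 15 counts at 35 weeks and 14 at 50 weeks, so that order rests on the scaling. Counting alone gives 28.1% variation at its mean count. The log2 fold change was 0.57 (SE 0.35, edgeR adjusted p = 0.627). On leaving out single libraries it lay between 0.41 and 0.77. The highest was without replicate 4 at 50 weeks (edgeR unadjusted p = 0.0285, adjusted p = 0.312). Without the 3 libraries that stood apart it was 0.77 (edgeR unadjusted p = 0.0345, adjusted p = 0.284). MRPS11 averaged 143 ± 23.5 and 170 ± 38.9 CPM (SD, n = 5), with a fold change of 0.25 on the log2 scale (SE 0.21). It overlaps DET1, a ubiquitin ligase component gene, over 720 bases, a gene whose means were 148 ± 28.2 and 175 ± 54.0 CPM (log2 fold change 0.23).

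Negative fold changes were found for 3 members, MRPS34, MRPL13 and MRPL35. MRPS34 (ENSGALG00010016527, chromosome 14, 14479957 to 14481871), specific to mitochondria, had 49.8, 91.8, 138, 135 and 53.4 CPM at 35 weeks and 53.9, 58.4, 110, 66.1 and 38.9 CPM at 50 weeks. Both ages held hens near 50 CPM, and the log2 fold change was −0.51 (SE 0.36, edgeR adjusted p = 0.677). MRPL13 (ENSGALG00010009463, chromosome 2, 135914798 to 135941257), with a bacterial counterpart, had 40.7, 65.6, 63.8, 126 and 101 CPM at 35 weeks and 88.2, 62.9, 59.0, 50.6 and 43.2 CPM at 50 weeks. The highest and the lowest hen were both at 35 weeks, and the log2 fold change was −0.39 (SE 0.33).

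MRPS25 (ENSGALG00010021916, chromosome 12, 19906870 to 19918420), specific to mitochondria, had 76.9, 78.7, 101, 189 and 224 CPM at 35 weeks and 118, 126, 101, 323 and 95 CPM at 50 weeks. Replicate 4 at 50 weeks was far above the other hens of its age, and replicates 4 and 5 led at 35 weeks. The log2 fold change was 0.21 (SE 0.41), −0.26 without replicate 4 at 50 weeks, and −0.63 (edgeR unadjusted p = 0.0417, adjusted p = 0.319) without the 3 libraries that stood apart. It overlaps the endosomal trafficking gene RBSN over 8653 bases, and RBSN averaged 64.2 ± 13.4 and 63.9 ± 12.6 CPM. The tested member MRPL48 (ENSGALG00010002577, chromosome 1, 194868669 to 194878315), specific to mitochondria, averaged 63.4 ± 20.2 and 77.5 ± 22.6 CPM (SD, n = 5), with a fold change of 0.30 on the log2 scale (SE 0.30).

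The other 53 members had too few counts to pass the filter for testing. Of these, 7 averaged 2 or more counts. MRPS12, counterpart of a bacterial decoding-centre protein, had 2 to 10 counts per library, and MRPL22, which lines the exit tunnel for the new peptide in bacterial ribosomes, had 1 to 9. MRPS18C had 1 to 9 counts, MRPS27 1 to 8, MRPL47 1 to 9, MRPL21 1 to 4 and MRPL20 0 to 5.

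A further 39 members averaged less than 2 counts but had a count in some library, never more than 5. They include core proteins of the ribosome such as MRPL2 (mean 1.0 count) and MRPL3 (0.6), which have bacterial counterparts near the peptidyl transferase centre, and MRPL10 (0.7) and MRPL12 (0.8) of the stalk that binds translation factors. The MRPL genes among them are MRPL1, MRPL2, MRPL3, MRPL9, MRPL10, MRPL12, MRPL14, MRPL15, MRPL16, MRPL17, MRPL19, MRPL23, MRPL24, MRPL28, MRPL32, MRPL36, MRPL37, MRPL38, MRPL39, MRPL40, MRPL44, MRPL45, MRPL51, MRPL54 and MRPL58. The MRPS genes among them are MRPS2, MRPS5, MRPS10, MRPS14, MRPS17, MRPS18A, MRPS23, MRPS26, MRPS28, MRPS30, MRPS31, MRPS33, MRPS35 and MRPS36. No count was found for MRPL27, MRPL50, MRPL53, MRPS9, MRPS15, MRPS16 and MRPS21, which over all 10 libraries allows up to 1.37 CPM (3 counts of the summed total, counting error only). No difference between ages in these 53 genes was detectable at this depth, and together they held 0.0196% ± 0.00263 of counts at 35 weeks and 0.0218% ± 0.00438 at 50 weeks (SD, n = 5).

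The neighbours of each member in the genome were listed, without a test. Positions were found for 67 members, and 52 of these have another annotated gene overlapping them or within 1 kb. Among the 15 members with no such neighbour, MRPL48 averaged 15.4 counts and the other 14 at most 1.4, so that these 15 genes held 1.35% of the family's counts. Of the 15 tested members 14 had a neighbour and 8 overlapped one. Of the 52 untested members with a position, 38 had a neighbour and 14 overlapped one. The same numbers for genes outside the family are not given here, so these are not read as a trait of the family.

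In 61 pairs of a member and a neighbour with counts for both, the neighbour had more counts in 29. Among the 19 pairs of a tested member this held in 3, namely MIF4GD beside MRPS7, DET1 beside MRPS11, and MRPS11 beside MRPL46. MRPS11 and MRPL46 are each other's neighbour, so they entered the 61 and the 19 in both directions. The last of the 3 cases was therefore fixed in advance. Tested members passed a filter on their own counts, so fewer neighbours can exceed them. MRPL57 lies 67 bases from SKA3, a gene of the mitotic spindle, which averaged 0.1 counts, and MRPS22 lies 244 bases from COPB2, a subunit of the vesicle coat of the Golgi, which averaged 1.5. The reverse was seen for MRPS14 (1.1 counts), which overlaps CACYBP (171.9 counts) by 4 bases, and for MRPL24 (0.3 counts), 97 bases from RRNAD1 (165.7 counts). MRPS16 and MRPL27 had no count beside SLC45A1 (61.3 counts) and EME1 (68.5 counts). Of the other members averaging 2 or more counts, MRPL22 lies 71 bases from GEMIN5 (49.7 counts), MRPS12 lies 148 bases from PAK4 (48.0), MRPL47 lies 96 bases from NDUFB5 (15.7), and MRPS18C overlaps FAM175A (24.0). How far the counts of members and neighbours share reads was not tested, since the sources used here do not name the strand of the counted reads.

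**Figure D5:**
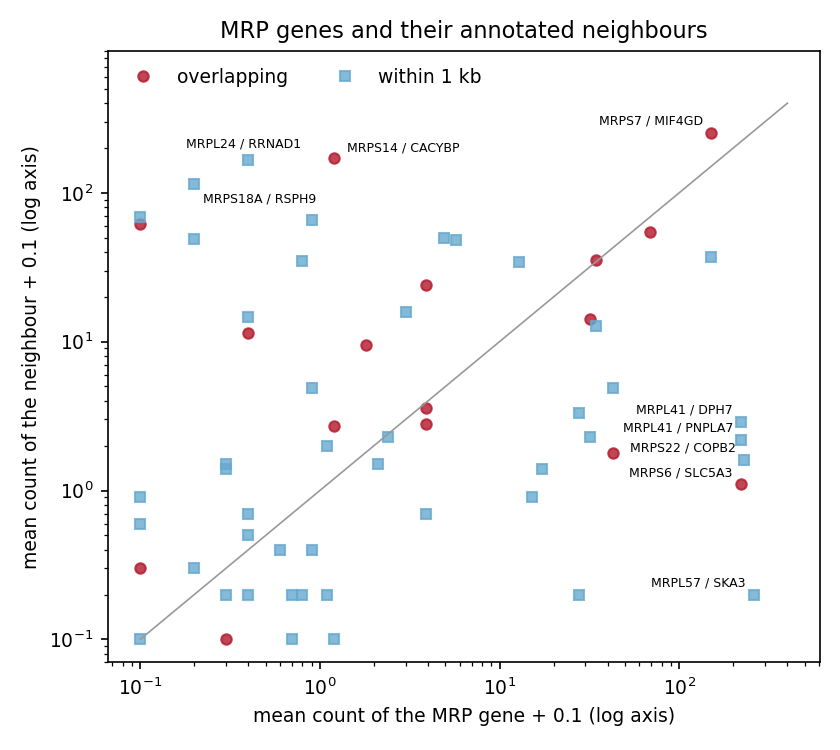
Mean count over 10 libraries of each MRP gene against that of an annotated gene that overlaps it (circles) or lies within 1 kb (squares), both plus 0.1 on log axes, with a line at equal counts. Of 61 pairs, 29 lie above the line. MRPS11 and MRPL46 are each other's neighbour and are drawn in both directions.

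Other genes of mitochondrial translation were compared from lists of related genes. Ribosomal proteins without an MRP symbol had 4 genes in the table and 2 tested, both with positive fold changes that did not pass. GADD45GIP1, a large-subunit protein, had means of 1149 ± 142 CPM (35 weeks) and 1225 ± 196 CPM (50 weeks) (SD, n = 5, log2 fold change 0.09), and PTCD3, a small-subunit protein, 164 ± 59.5 and 178 ± 28.3 CPM (0.12). Mitochondrial translation factors had 12 genes and 3 tested, 1 positive and 2 negative. MTIF3, an initiation factor, averaged 328 ± 52.9 and 419 ± 52.8 CPM (log2 fold change 0.35, edgeR unadjusted p = 0.0483, adjusted p = 0.473), and GFM1, an elongation factor, 171 ± 33.6 and 147 ± 41.9 CPM (−0.22).

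Mitoribosome assembly factors had 19 genes and 1 tested, the GTPase gene MTG1, with 248 ± 39.4 and 216 ± 55.3 CPM (log2 fold change −0.21). Mitochondrial aminoacyl-tRNA synthetases, which charge tRNAs, were listed with the amidotransferase that corrects mischarged glutamine tRNA, 16 genes with 3 tested, 2 positive and 1 negative. Of these GATC, a subunit of the amidotransferase, averaged 236 ± 47.8 and 275 ± 50.7 CPM (log2 fold change 0.22) and PARS2, the prolyl-tRNA synthetase, 332 ± 60.8 and 376 ± 69.2 CPM (0.18). Mitochondrial DNA maintenance and transcription had 13 genes and 1 tested, the nuclease gene MGME1, at −0.33 (SE 0.52). No gene of these lists passed over all genes.

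Set beside the nearest gene families, rows of MRP genes held more counts than rows of cytosolic ribosomal protein genes in all 10 hens. Cytosolic ribosomal protein mRNAs are abundant in nearly all cells. With the strand of the counts unknown, this order, like the low GAPDH counts above, is one of table rows and may not be that of mRNA. The 69 cytosolic genes held 0.387% ± 0.0607 of counts at 35 weeks and 0.366% ± 0.032 at 50 weeks (SD, n = 5), and the 53 nuclear oxidative phosphorylation genes 0.861% ± 0.073 and 0.771% ± 0.0599. Of the cytosolic genes 14 were tested, 4 positive and 10 negative (median log2 fold change −0.25), and of the oxidative phosphorylation genes 10, 5 positive and 5 negative (median 0.02). No gene of either family passed. The smallest p were those of RPL37A (−0.73) and RPL6 (−0.67) and of ATP5PF (−0.57) and NDUFB9 (−0.46), all lower at 50 weeks and with edgeR adjusted p between 0.254 and 0.428. Differences between the 3 families were not tested.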

How the data were processed

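RNA from whole magnum of 5 hens at 35 and 5 at 50 weeks was sequenced. Per the labels' protocols, RNA was extracted with TRIzol, kept above a set integrity number and made into directional NEBNext Ultra II libraries. Per the submitters' processing notes, the tools included HISAT2, Trimmomatic, DESeq2 and Cufflinks, with build GRCg7b. The sources used here do not name the counter, its strand setting or tool versions. Whole-number counts per Ensembl gene, not normalised, were deposited in 1 table with 1 column per hen, matched by the column name in each label. Of the authors' deposited table of p-values only the gene names were used.

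Ages were compared in R 4.3.3 using edgeR 4.0.16 (filterByExpr at a minimum count of 10, TMM, robust glmQLFit and glmQLFTest, two-sided, age as the only term, Benjamini-Hochberg over 1773 genes, threshold 0.05). Standard errors come from the F statistic. CPM of single genes use library totals times TMM factors, and summed marker CPM library totals alone. Sums over members have no test. On simulated data for this comparison with 1776 genes tested, 61.3% of 93 genes changed 2-fold and 100% of 93 changed 4-fold were recovered. The simulation gave every gene the same biological coefficient of variation (0.285), so its rates may overstate recovery for real genes that vary more between hens. In it 151 genes passed, a number that follows from the changes put in. It is not comparable with the 1 gene of the real comparison.

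Of the 68 members, 67 matched by symbol to the RefSeq gene table of GRCg7b, which has no strand column and gives no transcript length; neighbours were also matched by symbol. Members, lists and rules were chosen with earlier results of these data known. Genes tested were named with their values, with every hen's value for the 8 with most CPM and the 3 smallest p per direction; values by hen for MRPS25, and neighbours with fewer counts than the member or beside members averaging under 2 counts, were chosen after their values were seen. Hens of 1 age differed by more than sampling noise (chi-square per degree of freedom at least 2.66 over 20 pairs). Each hen was taken as 1 replicate because every bird had its own number. Alternatives were RLE, library totals, other filters, DESeq2 1.42.0, limma-voom 3.58.1, a replicate block, other denominators and members, and leaving out libraries. Summaries used Python 3.11.15, pandas 2.3.3, scipy 1.17.1 and matplotlib 3.10.9.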

Additional observations from a re-analysis of the deposited data

Results flagged for a closer look

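MRPS25 at 50 weeks was set apart by 1 hen. Replicate 4 had 323 CPM and the other 4 hens 95 to 126 CPM, a gap of 0.865 of the group's whole range. It was the only such case among 34 groups of 5 looked at (15 genes and 2 sums at 2 ages), and chance marks about 1 group in 20. In the same library the 7 fibroblast markers summed to 895 CPM, against at most 545 CPM in the other 9 hens. The 5 T cell markers, 2 of them without a count in any library (CD3D and CD4), summed to 403 CPM against at most 197 CPM. Other lists went the other way there, with ciliated epithelium (612 CPM) and endothelium (492 CPM) at their lowest of any hen. Smooth muscle markers (120 CPM) were at their lowest of the 50-week hens but not of all hens. Erythrocyte markers had 0 CPM, a value also reached at 35 weeks. Markers of B and plasma cells (89.1 CPM), macrophages (73.6 CPM) and secretory cells (30303 CPM) lay within the range of the other hens. In these lists PAX5 and POU2AF1 (B and plasma cells), MARCO, C1QA and C1QB (macrophages) and HBE1 (erythrocytes) had no count in any library. The part of these cell types in the MRPS25 value was not tested.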

How the results depend on the processing

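No MRP gene with an adjusted p passed the threshold in the main fit or in any of the 18 alternative fits, with RLE factors, library totals only, 2 other filters, DESeq2, limma-voom, a replicate block or without single libraries or the 3 that stood apart (DESeq2 gave an adjusted p for 8 of 15). Few genes of the whole table passed either. They were 1 of 1773 in the main fit, 17 of 1773 with DESeq2, 8 of 1773 with limma-voom and 36 of 15792 without a filter. With a minimum CPM of 1 in 5 libraries 40 of 7900 passed, and without the 3 libraries 42 of 1828. At an unadjusted p under 0.05 there were 0 in the main fit (10.5% of all tested genes had one). There were 2 of 61 without a filter on low counts (MRPL24 and MRPL9, against 5.86% of all genes in that fit). With a minimum CPM of 1 in 5 libraries there was 1 of 35 (MRPL1, against 7.25%). Without the 3 libraries that stood apart there were 2 of 15 (MRPL46 and MRPS25, against 14.9%). On leaving out single libraries there were 0 to 1, against 7.62% to 12.7% of all genes. The median log2 fold change stayed positive throughout, between 0.04 and 0.21. The difference in share stayed positive in all 18 alternatives, though the replicate block among them cannot change it. It was 0.0554 to 0.0874 points on leaving out single libraries. Limited to members without a gene within 1 kb the difference in share was 0.00205 points, a set that holds few of the counts. The sign turned for MRPL33 without the 3 libraries (−0.0037), and for MRPS25 with limma-voom (−0.063) and without the 3 libraries (−0.63). On leaving out single libraries it turned for MRPS22 (−0.0012 to 0.18), MRPL42 (−0.11 to 0.10), MRPL35 (−0.34 to 0.21) and MRPS25 (−0.26 to 0.47). The cause was not tested. Same-numbered hens did not deviate together (correlations −0.115 to 0.0979). With a replicate block 0 MRP genes passed (2 of all 1773 genes did), with a median log2 fold change of 0.14. The block cannot change the difference in mean share, since each replicate number occurs once at each age. Depth limits these results: 53 of 68 members did not pass the main filter, and 5 of the 15 intervals still include a 2-fold change. Of all 29558 genes, 1773 passed that filter.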
